A study of Mus musculus with 10 samples.

Results

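Mouse leukaemias of 2 kinds were compared with and without a Dnmt3b knockin to find the stretches of the genome whose DNA methylation differed in the same direction in both. The stretches are 1-kb windows of the mm9 genome in which the mean level of the knockin libraries differed from that of the WT libraries by at least 10 percentage points in both leukaemias. In addition, no knockin library of a leukaemia was allowed to overlap its WT libraries. Of 27020 windows tested, 711 were higher in both knockins (2.63%, called common-gain windows below) and 2 were lower in both (0.0074%). A further 87 were higher in 1 knockin and lower in the other in the sense MLL-AF9 up and cMyc-Bcl2 down (0.322%), and 23 had the reverse signs (0.0851%). Because the difference itself chose these windows, their differences are given as a description without a test.

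Reduced representation bisulfite sequencing was applied to 10 libraries of leukaemic spleen DNA. MspI cuts at CCGG, so the assay reads short CpG-rich fragments, and bisulfite turns unmethylated cytosines into bases read as thymine. The first leukaemia carried MLL-AF9, a fusion oncoprotein of acute leukaemia, and was represented by c-kit+ spleen cells, with 3 WT and 3 Dnmt3b-knockin libraries. The other carried cMyc, a growth-promoting transcription factor, with Bcl2, an inhibitor of apoptosis, and was represented by leukaemic spleen cells with no c-kit selection in the label, with 2 WT and 2 knockin libraries. The series describes the knockin as tetracycline-inducible. The inducing agent and its timing, strain and age are not stated in the labels, nor is whether the WT leukaemias carry parts of the inducible system. The sort differs between the models, so a difference between models cannot be told apart from a difference in cell selection. The labels do not state that the libraries came from separate animals, so a p-value covers only the spread among the libraries, and that spread may be technical.

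Dnmt3b is a de novo DNA methyltransferase: it adds methyl groups to CpGs that carry none on either strand, whereas Dnmt1 copies existing methylation after replication. CpG-dense promoters of active genes are usually kept free of methylation, and most other CpGs of mammalian genomes are methylated. Dnmt3b is known for its part in setting methylation in the embryo, at repeats and in gene bodies, and human mutations in it cause an immunodeficiency with unstable pericentromeric DNA.

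Common-gain windows that lay on a promoter are the easiest to picture, and 4 such stretches are printed here with 1 of opposite sign for contrast. Each is the 250 bases before a transcription start in RefSeq (GRCm38.p6), read 5′ to 3′ in the direction of the gene. Capitals mark the CpGs that were measured, that is, had at least 10 reads in all 10 libraries. Positions are in mm9 and come from matching the spacing of the CpGs in the sequence to the spacing of the CpGs listed by the deposited files. Mmp23 encodes a membrane-bound metalloproteinase and lies on the minus strand at chr4:155027400-155027649. Sh3d21 encodes a protein with SH3 domains (minus strand, chr4:125839910-125840159). 2600014E21Rik is a RefSeq gene without a name (plus strand, chr2:74975462-74975711). Bsx encodes a homeobox transcription factor of the hypothalamus (plus strand, chr9:40681960-40682209). Fam83b (minus strand, chr9:76414923-76415172) is the promoter of opposite sign.
Mmp23: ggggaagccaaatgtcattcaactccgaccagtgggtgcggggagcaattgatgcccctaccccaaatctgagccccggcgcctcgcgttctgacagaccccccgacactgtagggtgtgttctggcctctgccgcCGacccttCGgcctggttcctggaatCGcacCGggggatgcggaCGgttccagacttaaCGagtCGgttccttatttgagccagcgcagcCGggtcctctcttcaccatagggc
Sh3d21: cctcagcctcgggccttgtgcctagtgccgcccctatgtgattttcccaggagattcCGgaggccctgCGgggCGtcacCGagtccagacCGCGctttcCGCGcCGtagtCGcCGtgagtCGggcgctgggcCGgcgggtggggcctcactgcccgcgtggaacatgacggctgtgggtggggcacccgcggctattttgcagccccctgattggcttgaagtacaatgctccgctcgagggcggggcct
2600014E21Rik: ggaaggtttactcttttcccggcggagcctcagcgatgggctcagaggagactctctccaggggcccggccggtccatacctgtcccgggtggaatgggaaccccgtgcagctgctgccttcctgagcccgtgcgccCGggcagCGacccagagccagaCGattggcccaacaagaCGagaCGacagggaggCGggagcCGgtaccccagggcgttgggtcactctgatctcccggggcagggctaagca
Bsx: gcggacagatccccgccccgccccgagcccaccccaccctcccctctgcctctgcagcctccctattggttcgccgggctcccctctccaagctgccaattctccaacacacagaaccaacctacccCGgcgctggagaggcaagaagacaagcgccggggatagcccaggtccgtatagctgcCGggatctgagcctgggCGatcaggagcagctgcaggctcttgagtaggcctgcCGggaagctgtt
Fam83b: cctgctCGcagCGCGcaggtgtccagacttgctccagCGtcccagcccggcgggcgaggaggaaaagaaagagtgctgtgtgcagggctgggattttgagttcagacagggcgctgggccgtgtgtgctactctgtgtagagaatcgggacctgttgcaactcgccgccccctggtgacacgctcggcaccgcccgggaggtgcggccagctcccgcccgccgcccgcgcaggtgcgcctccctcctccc
The measured CpGs form short blocks inside each stretch: 8 of the 18 CpGs printed for Mmp23, 13 of 25 for Sh3d21, 7 of 18 for 2600014E21Rik, 4 of 14 for Bsx and 4 of 23 for Fam83b. A level given for any of these promoters is that of its capitals only.

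Depth ran from 14446933 to 46762220 read calls per library, with 502667 to 932349 CpGs at 10 reads or more. The 320305 autosomal CpGs with 10 reads in all 10 libraries gave the windows. Mitochondrial CpGs, a guide to incomplete conversion, read as methylated in 0.910 to 3.20% of calls. Read calls on chromosome Y were 1764 in MLL-AF9 knockin replicate 1 and 1493 in cMyc-Bcl2 WT replicate 2, against 24 to 233 in the other libraries, so these 2 libraries stand apart from their groups in this respect; only autosomes were used. Over all tested windows the knockin libraries were higher by 3.12 points in the MLL-AF9 model and by 3.58 in the other. Averaged over the models the difference was 3.35 points (exact permutation test within oncogene, two-sided p = 0.0167, the smallest that the 120 arrangements allow).

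The common-gain windows started at low to intermediate methylation and reached about the middle of the scale. Their mean level was 27.6%, 28.0% and 25.1% in the 3 MLL-AF9 WT libraries and 50.7%, 48.4% and 42.1% in the 3 knockin libraries. In cMyc-Bcl2 it was 32% and 31.1% in WT and 57.7% and 57.1% in knockin. The rule itself sets these groups apart, and within the MLL-AF9 knockin the third replicate was the lowest. The group means were 26.9% ± 1.60 (SD, n = 3) and 47.1% ± 4.48 (SD, n = 3) in MLL-AF9, and 31.6% ± 0.606 (SD, n = 2) and 57.4% ± 0.438 (SD, n = 2) in cMyc-Bcl2. The difference was thus 20.2 points in the first model and 25.8 in the second. It was larger in cMyc-Bcl2 in 476 of the 711 windows (66.9%). In MLL-AF9 293 windows differed by at least 20 points, in cMyc-Bcl2 457, and in both 198.

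**Figure D1:**
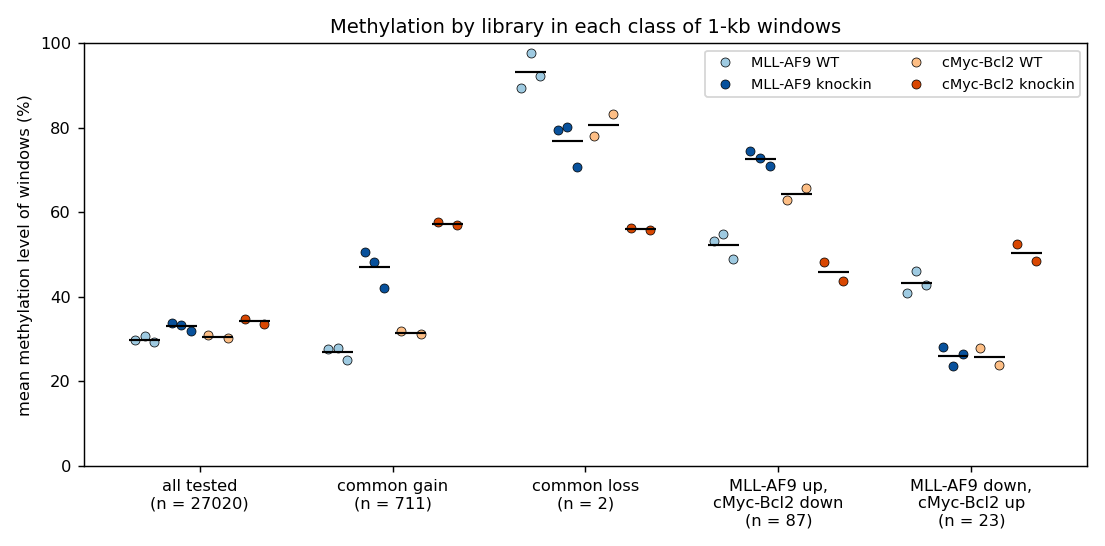
Mean methylation level (%) of each class of 1-kb windows in each library; points are libraries, lines are group means, and n is the number of windows. In the 711 common-gain windows the WT libraries sit between 25.1 and 32% and the knockin libraries between 42.1 and 57.7%.

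Gains outnumbered losses in each model and among the windows that passed in both. Asking for a call in both models raises such an imbalance by itself, so its greater size there is no separate result. In MLL-AF9 alone 1753 windows passed as higher (6.49%) and 50 as lower (0.185%), and in cMyc-Bcl2 alone 3656 (13.5%) and 476 (1.76%). The 711 common gains are 40.6% of the MLL-AF9 gains, beside 13.5% of all windows that gained in cMyc-Bcl2, and 19.4% of the cMyc-Bcl2 gains, beside 6.49% of all windows that gained in MLL-AF9. Leaving out a library relaxes the demand for no overlap: there were 1095 common gains without MLL-AF9 WT replicate 2 and 1089 without replicate 3 of the MLL-AF9 knockin. Leaving out the libraries with high chromosome Y counts gave 720 (MLL-AF9 knockin replicate 1) and 811 (cMyc-Bcl2 WT replicate 2). With at least 20 reads per CpG there were 140 common-gain windows, and 100 of the 159 members that could still be tested were among them.

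**Figure D2:**
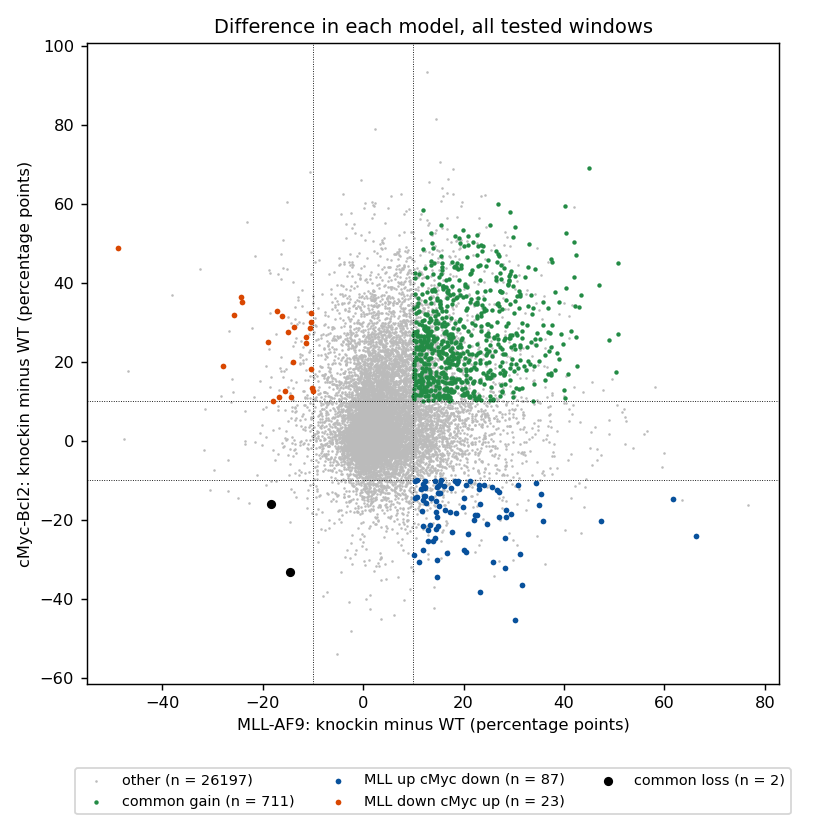
Knockin minus WT in percentage points for each of the 27020 tested windows, MLL-AF9 on the horizontal and cMyc-Bcl2 on the vertical axis; dotted lines mark 10 points either way and colours the classes. The 711 common-gain windows fill the upper right, and 2 common-loss windows stand in the lower left.

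Common-gain windows differed from other windows in WT level. Of the 711, 664 (93.4%) had a WT level of 5 to 80%, taken as the mean of both models, against 27.4% of all tested windows. The median WT level was 20.2% in common-gain windows and 5.29% in all. With a minimum of 5 reads the medians were 27.4% and 30.4%, so their order turned, while 94.3% and 28.7% of windows lay at 5 to 80%. Of windows under 5% in WT, 38 of 13361 were common gains (0.284%). The share was 8.34% at 5 to 20%, 11.0% at 20 to 50% and 8.21% at 50 to 80%, and it was 0.144% (9 of 6246) over 80%. Windows near full methylation cannot gain 10 points, which limits the last class.

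The 2 models did not need to start alike. In 419 common-gain windows (58.9%) the WT level of both models lay in the same of these 5 classes, against 81.5% of all tested windows, and in 468 (65.8%) the MLL-AF9 WT level was the lower of the pair, against 54.2% of all. Both WT levels were under 20% in 299 of the windows (42.1%), against 61.4% of all. Of all tested windows, 12502 were under 5% in both models and 5581 over 80% in both. Among common gains these were 16 and 6. The 81.5% thus rests largely on windows near either end of the scale. The share in the same class was not computed for windows at 5 to 80% alone.

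CpG density was counted as the CpGs listed in any library in the 1-kb window. Common-gain windows had a median of 22 (10th to 90th percentile 8 to 56), against 31 for all tested windows. The share of common gains was 3.31% with under 20 CpGs, 3.02% with 20 to 59 and 0.954% with 60 or more. At a WT level of 5 to 20% these shares were 9.44%, 9.20% and 5.23%, and at 20 to 50% they were 11.8%, 11.5% and 4.55%. At 50 to 80% they were 7.79%, 10.2% and 3.45%, the last from 29 windows. The densest windows thus had the lowest share in each of the 5 WT classes (0 of 39 over 80%). The 2 other density classes were close except at 50 to 80%. The mean difference did not follow density alike in both models. At 5 to 20% it fell from 7.46 points with under 20 CpGs to 3.23 with 60 or more in MLL-AF9. In cMyc-Bcl2 it was 9.34, 14.2 and 11.9 points over the density classes in turn. Between the same end classes at 20 to 50% and at 50 to 80%, it fell in MLL-AF9 and rose in cMyc-Bcl2. Under 5% it fell in both models. With a minimum of 5 reads the medians were 17 and 18 CpGs, so the difference in density over all windows depended on the coverage minimum.

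**Figure D3:**
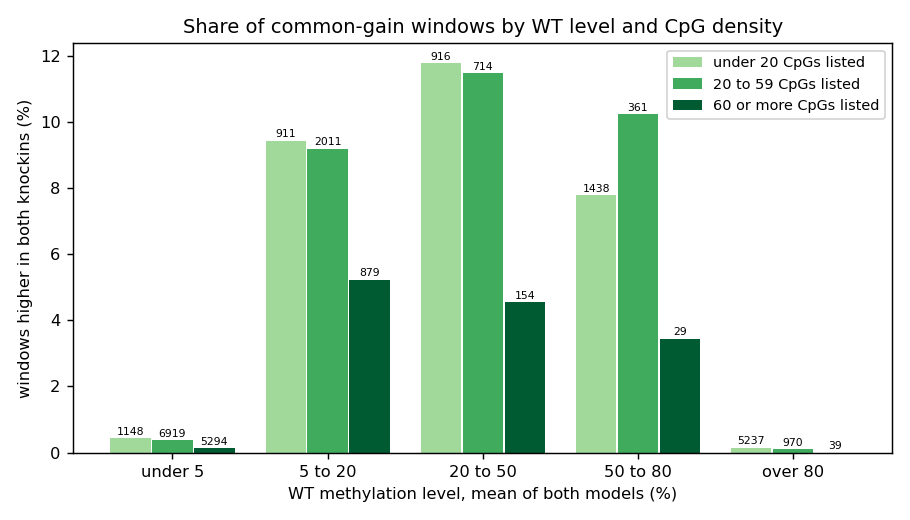
Percent of tested windows that were higher in both knockins, by WT level (mean of both models, %) and by CpGs listed in the window; the number over each bar is the windows tested. Bars reach 3.45 to 11.8% between 5 and 80% and stay under 0.5% outside it.

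Most common-gain windows had no tested window right after them, so pairs and runs could seldom be seen. The next window along the chromosome was also tested for 138 common-gain windows. It was a common gain in 15 (10.9%), against 2.03% for all tested windows with such a neighbour. Where both windows of a pair had WT levels of 5 to 80%, it was 14 of 87 (16.1%) against 7.77%. The windows formed 681 singles and 15 pairs and no longer run. The median gap between neighbouring common gains on a chromosome was 954.5 kb, and 33 of 692 gaps (4.77%) were 10 kb or less. Gaps were not computed for all tested windows. With at least 20 reads per CpG no such pair was seen, and when WT replicate 2 or knockin replicate 3 of MLL-AF9 was left out the share with a common-gain neighbour was 21.9% or 18.8%, beside 3.44% of all windows in both cases. By chromosome the share of common gains ran from 1.11% (9 of 814) on chromosome 16 to 3.53% (56 of 1586) on chromosome 8.

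The rule chose the difference inside the windows, so the step from inside to outside is partly built in. Among all tested CpGs outside, the difference fell with distance in both models, over more points in cMyc-Bcl2. Averaged over CpGs, it was 18.3 (MLL-AF9) and 25.3 points (cMyc-Bcl2) inside common-gain windows. Tested CpGs outside but within 0.3 kb differed by 6.51 and 18 points. Those at 0.3 to 1 kb differed by 3.65 and 10.9, and those over 100 kb away by 1.38 and 2.29. Among outside CpGs with a WT level of 5 to 80%, the values were 7.53 and 22.7 points within 0.3 kb and 3.97 and 8.55 over 100 kb. In MLL-AF9 the values between 0.3 and 100 kb stayed at 4.73 to 6.54 points with no steady order, and in cMyc-Bcl2 they went from 17.6 at 0.3 to 1 kb to 8.37 at 20 to 100 kb. These CpGs were measured in the same libraries as the windows.

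Within the windows most CpGs shared the direction. Of 4862 tested CpGs, 4185 (86.1%) were higher in knockin in both models, against 22.9% of the CpGs in all tested windows. In 372 windows (52.3%) every tested CpG was, against 5.03% of all tested windows. The reads of these CpGs chose the windows, so both shares are a description. The files give each strand its own reads, which allows windows chosen on reads of the forward strand to be read out on the reverse strand of the same libraries. The 307 windows so chosen differed by 20.1 and 26.7 points in MLL-AF9 and cMyc-Bcl2 on the forward strand and by 16.8 and 23.7 on the reverse. The rule also held on the reverse strand in 121 (39.4%), against 1.90% of all windows with both strands. Choosing on the reverse strand gave 293 windows, with 20.3 and 27.5 points there and 16.7 and 24.8 on the forward strand. Both strands come from the same libraries, so this repeats the reading, not the leukaemia.

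Windows chosen in 1 model were measured in the other, whose libraries had no part in the choice. The 1753 windows higher in the MLL-AF9 knockin went from 46.8% ± 0.271 (SD, n = 2) to 57.6% ± 1.60 (SD, n = 2) in cMyc-Bcl2, a difference of 10.8 points. An exact permutation test (two-sided) gave p = 0.333, the minimum for 2 libraries against 2, and the Benjamini-Hochberg adjusted value over 8 tests was 0.333. The 3656 windows higher in the cMyc-Bcl2 knockin went from 27.8% ± 2.39 (SD, n = 3) to 35.9% ± 3.61 (SD, n = 3) in MLL-AF9, a difference of 8.06 points. There the exact permutation test gave p = 0.1, the minimum for 3 against 3, and 0.2 after the same adjustment. Neither design can reach 0.05.

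Windows chosen as losses in 1 model were on average higher in the knockin of the other. The 50 windows lower in the MLL-AF9 knockin were higher by 11.9 points in the cMyc-Bcl2 knockin (exact permutation p = 0.333, the smallest possible). Of them 23 (46%) passed as gains there, beside 13.5% of all tested windows. The 476 windows lower in the cMyc-Bcl2 knockin were higher by 7.40 points in the MLL-AF9 knockin (exact permutation p = 0.1, the smallest possible, and 0.2 adjusted). Of them 87 (18.3%) passed as gains there, beside 6.49% of all tested windows. The differences of 11.9 and 7.40 points lie beside 10.8 and 8.06 points for windows chosen as gains. The difference between the 2 kinds of choice was not tested.

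Split by the WT level of the model measured, windows chosen as gains in the other model were above windows not chosen under 20% and below them at 20 to 50%. Among windows under 5% in cMyc-Bcl2 WT, the 57 MLL-AF9 gains differed by 15.6 points and the 12949 windows not chosen in either direction by 0.723. At 5 to 20% the values were 18.8 and 10.9 points. At 20 to 50% they were 14.3 and 15.2, at 50 to 80% 8.30 and 7.23, and over 80% -0.26 and -0.34. In MLL-AF9 the cMyc-Bcl2 gains differed by 6.03 points against 0.760 under 5%, and by 8.20 against 5.30 at 5 to 20%. At 20 to 50% the values were 9.76 and 10.6, and at 50 to 80% 9.999 and 9.41. Windows chosen as losses in cMyc-Bcl2 also differed by more in MLL-AF9 than windows not chosen. The values were 3.68 against 0.760 points under 5% and 11.6 against 5.30 at 5 to 20%. At 20 to 50% they were 12.2 against 10.6, and at 50 to 80% 11.4 against 9.41. An excess was thus not limited to windows chosen as gains. These are descriptions over windows, and the difference between chosen and other windows has no test.

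**Figure D4:**
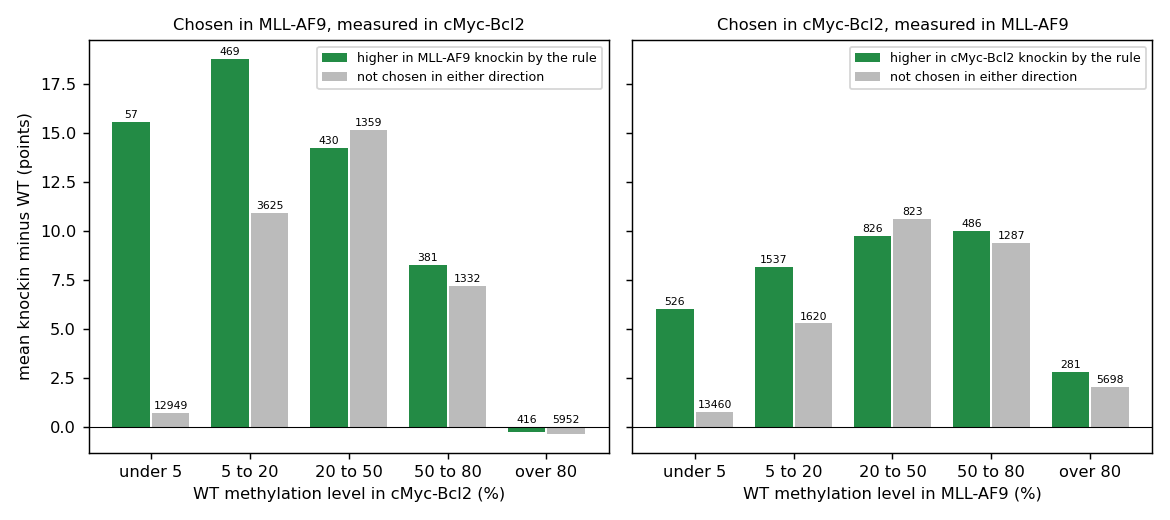
Mean knockin minus WT (points) in the model that had no part in choosing the windows, by its WT level (%); green bars are windows higher in the other knockin, grey bars those chosen in neither direction, and numbers are windows. Green and grey bars differ under 20% and lie close at 20% and above.

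The windows with the largest gains, ranked by the smaller of the 2 differences, were short clusters of 3 to 8 measured CpGs. Genes are named by the nearest transcription start among matched promoters, which does not say that a window lies in that gene. The first, chr8:126416343-126416365, lay 2322 bp downstream of the start of Acta1, the skeletal muscle actin. Its level was 9.30%, 2.44% and 4.26% in MLL-AF9 WT and 63.1%, 36.5% and 51.5% in knockin, and 6.06% and 3.96% in cMyc-Bcl2 WT and 65.6% and 82.5% in knockin. All WT libraries were thus at 9.30% or less and all knockin libraries at 36.5% or more, for differences of 45.0 and 69.0 points. This rests on 3 CpGs with 40 to 171 reads per library.

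The second window was the Mmp23 promoter block printed above (8 CpGs, chr4:155027422-155027513, 153 to 566 reads). It read 23.3%, 13% and 11.1% in MLL-AF9 WT and 80.2%, 75.3% and 43.9% in knockin. In cMyc-Bcl2 it read 26.9% and 7.24% in WT and 68.6% and 55.3% in knockin. The differences were 50.7 and 44.9 points, and the lowest knockin library of either model was above the highest WT library of both. Near Cpne9, a gene of the copine family of calcium-dependent membrane-binding proteins, 2 adjacent windows gained. At chr6:113233213-113233276 (5 CpGs, 943 bp downstream of the start) the level went from 4.97% ± 3.39 (SD, n = 3) to 45.1% ± 19 (SD, n = 3) in MLL-AF9, and in the other model from 11.2% ± 9.12 (SD, n = 2) to 70.7% ± 19.7 (SD, n = 2). At chr6:113232424-113232503 (9 CpGs) the differences were 25.3 and 38.2 points.

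A window 4034 bp downstream of the start of Piezo1, a mechanically gated ion channel (chr8:125071154-125071236, 4 CpGs), differed by 40.3 and 52.7 points. At chr19:7002564-7002613 (3 CpGs) the differences were 42.5 and 47.1 points, and at chr14:21556572-21556633 (6 CpGs, 2818 bp upstream of the start of Ndst2, a heparan sulphate enzyme) they were 40.5 and 38.8. The models could start far apart and still both gain. At chr12:25178431-25178488 (7 CpGs, 153 to 399 reads) MLL-AF9 went from 1.44%, 1.21% and 6.41% in WT to 66.7%, 42.4% and 41% in knockin, while cMyc-Bcl2 started at 42.2% and 71.7% and reached 95.7% and 97.3%. The other 3 of the 10 lay 24.6 kb or more from a matched start, and their differences were 37.7 to 41.9 points in MLL-AF9 and 41.5 to 50.3 in cMyc-Bcl2.

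The other pairs of adjacent windows named by rank lay 10186 and 11454 bp downstream of the start of Uncx, a homeobox gene of the somites, and 310153 and 311025 bp from the nearest matched start on chromosome 11. The Uncx pair (chr5:140030033-140030044 and chr5:140031253-140031360) differed by 24.5 and 23.2 points in the first model and by 26.6 and 44.6 in cMyc-Bcl2. The pair on chromosome 11 (chr11:85703657-85703684 and chr11:85704503-85704582) differed by 41.9 and 28.3 points in MLL-AF9, where the first window ranged from 19.09 to 77.1% among knockin libraries, and by 41.5 and 14.4 in cMyc-Bcl2.

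At the edge of the rule, the 2 windows just inside differed by little over 10 points in MLL-AF9 and by 26.8 and 11.4 in cMyc-Bcl2. The 2 just outside had 13.6 and 9.99 points in MLL-AF9 and cMyc-Bcl2, and 9.97 and 39.7.

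Only 2 windows were lower in both knockins. At chr11:88181429-88181523 (3 CpGs) the level was 92.3%, 96.8% and 97.7% in MLL-AF9 WT and 75.0%, 81.3% and 75.4% in knockin, and 98.6% and 95.7% in cMyc-Bcl2 WT and 85.6% and 76.7% in knockin. At chr17:31784919-31784958 (3 CpGs) it went from 90.8% ± 6.98 (SD, n = 3) to 76.3% ± 9.35 (SD, n = 3) and from 64.2% ± 9.49 (SD, n = 2) to 31.0% ± 5.77 (SD, n = 2). Both rest on the minimum of 3 CpGs, with 38 to 141 reads per library, and neither was tested at a minimum of 20 reads or 5 CpGs.

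Of the 2 classes of opposite sign, the 87 windows had a higher WT level and fewer listed CpGs than common gains. The 23 windows of reverse signs were nearer to common gains: 91.3% had a WT level of 5 to 80% and 43.5% under 20 listed CpGs, against 93.4% and 44.9%. Both WT levels were under 20% in 4.35% of the 23, against 42.1% of common gains. These features were not tested. The 87 windows higher in the MLL-AF9 knockin and lower in the cMyc-Bcl2 knockin had a median WT level of 67.6% and a median of 11 listed CpGs, and 68 of them (78.2%) held only 3 or 4 measured CpGs, against 44.2% of common gains. Their mean level was 53.3%, 54.9% and 49.0% in MLL-AF9 WT and 74.5%, 72.8% and 71.0% in knockin, and 62.9% and 65.7% in cMyc-Bcl2 WT and 48.2% and 43.7% in knockin. The 23 windows of reverse signs had a median WT level of 23.9% and 30 listed CpGs, and read 40.9%, 46.2% and 42.7% in MLL-AF9 WT and 28.1%, 23.6% and 26.6% in knockin. In cMyc-Bcl2 they read 27.8% and 23.8% in WT and 52.5% and 48.4% in knockin.

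The MLL-AF9 WT level was the lower of the pair in 71 of the 87 windows (81.6%) that gained in MLL-AF9, and in 2 of the 23 (8.70%) that lost there; the WT libraries entered the choice of both. Of the 12 windows of the first class and the 5 of the second whose next tested window lay within 5 kb, none had one of its own class there. Over all windows with such a neighbour the shares were 0.163% and 0.0503%, so these few windows cannot speak on clustering. Chosen on the forward strand, 18 windows of the first class differed by 23.4 and -17.8 points there and by 19.4 and -12.4 on the reverse. Of the 18, 2 (11.1%) also passed on the reverse, beside 0.0845% of all windows with both strands. For common gains these shares were 39.4% and 1.90%. The 13 windows chosen on the reverse strand differed by 17.2 and -17.6 points there and by 9.95 and -9.18 on the forward. In place of 87 windows, 193 passed when cMyc-Bcl2 WT replicate 1 was left out, 190 when knockin replicate 1 of that model was, and 131 when its WT replicate 2 was. In place of 23, the MLL-AF9 libraries gave 62 (WT replicate 3 left out), 47 (WT replicate 1), 60 (knockin replicate 1) and 37 (knockin replicate 2).

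Distance to a transcription start also differed between the classes, over windows on chromosomes with matched starts. Of common-gain windows 140 of 701 (19.97%) lay within 1 kb of a matched start, against 39.2% of all tested windows, but 19.9% against 23.1% at WT levels of 5 to 80%. Of the windows higher in the MLL-AF9 and lower in the cMyc-Bcl2 knockin, 3 of 85 (3.53%) lay within 1 kb and 61 (71.8%) over 20 kb away. Of those with reverse signs 9 of 23 (39.1%) lay within 1 kb.

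Promoters, taken as the 250 bases before to 50 after a start, could be placed for 11801 RefSeq sequences, and 5988 of them, of 5400 genes, held measured CpGs in a tested window. Of these 59 (0.985%), of 56 genes (1.04%), lay in a common-gain window, none in a common-loss window and 5 in a window of opposite sign. In 37 of the 59 the rule also held on the CpGs of the promoter stretch alone, a readout added after the data were seen. Windows that held a measured promoter were common gains in 1.03% of cases, against 3.02% of other windows. The other windows may hold promoters too, because 11801 of 31396 autosomal sequences were placed, and they include the windows of chromosome 18. By WT level the shares were 7.71% against 8.44% at 5 to 20% and 8.65% against 11.2% at 20 to 50%. Under 5%, where most promoter windows lay, they were 0.088% (4 of 4537) against 0.385% (34 of 8824), and at 50 to 80% 0 of 27 against 8.33%.

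After Mmp23, the promoters with the largest common gains were those of C130026L21Rik, Iglon5, Sh3d21, Npffr1, 2600014E21Rik, Adamts18, 3300002P13Rik, Cpxm2 and Epha10. Sh3d21 had the largest number of measured CpGs in the printed stretches, and its 13 CpGs read 1.95%, 3.75% and 2.58% in MLL-AF9 WT and 43.9%, 28.2% and 18.1% in knockin. In cMyc-Bcl2 they read 17.5% and 22.2% in WT and 49.3% and 37.9% in knockin. The promoter was thus nearly unmethylated only in MLL-AF9 WT, and it gained 27.3 and 23.8 points. The 7 CpGs of 2600014E21Rik read 15.6%, 5.13% and 19.8% against 38.7%, 42.5% and 27.3% in MLL-AF9 and 7.91% and 8.99% against 34.9% and 52.4% in cMyc-Bcl2. Adamts18 encodes a secreted metalloproteinase, and its 4 CpGs moved from 14.2% ± 4.67 (SD, n = 3) to 36.1% ± 14.1 (SD, n = 3) in MLL-AF9, and in the other model from 15.9% ± 6.71 (SD, n = 2) to 66.2% ± 23.3 (SD, n = 2). Iglon5, a cell adhesion molecule of neurons, gained 27.1 and 32.9 points over 4 CpGs, and Epha10, an ephrin receptor, 10.2 and 22.5 over 8. The promoter stretch of Cpxm2, a carboxypeptidase-like protein, differed by 8.36 and 13 points and missed the rule on its own 3 CpGs, while its whole window gained 20.8 and 49.5.

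**Figure D5:**
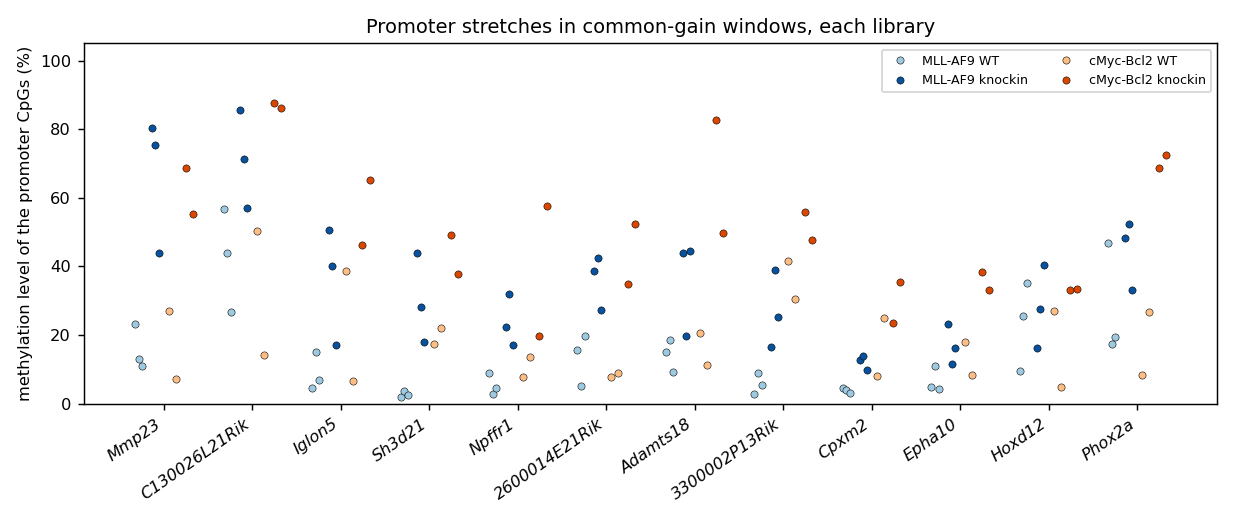
Methylation level (%) of the measured CpGs of promoter stretches in common-gain windows; each point is a library, and the 10 promoters with the largest gains stand before Hoxd12 and Phox2a, the members of the gene lists. In Mmp23 the WT libraries read 7.24 to 26.9% and the knockin libraries 43.9 to 80.2%. In Hoxd12 and Phox2a the MLL-AF9 groups overlap.

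Further promoters among the 56 genes are given as examples; they were chosen after their values were seen. Npffr1, a receptor of RF-amide peptides, gained 18.3 and 28.0 points in MLL-AF9 and cMyc-Bcl2 over 11 CpGs of its promoter. Hcrtr1, an orexin receptor, went from 2.17% to 18.4% and from 4.16% to 19%, and Drd4, a dopamine receptor, from 2.53% to 20.3% and from 4.50% to 26.7%. In Drd4 the MLL-AF9 knockin libraries were uneven, at 44.9%, 7.83% and 8.30%, and all were above the WT libraries at 2.52%, 0% and 5.06%. Ucn, the peptide urocortin, gained 12.7 and 26.5 points. In Gal, the peptide galanin, the promoter CpGs differed by 19.7 and 38.8 points, but the MLL-AF9 libraries overlapped. The promoter CpGs of Cartpt, the precursor of a peptide of appetite control, differed by 9.12 and 7.87 points, and those of Crhr1, a receptor of corticotropin-releasing hormone, by 9.66 and 38.3. Both missed the rule there, while their whole windows passed it.

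Of the 10 gene lists, 2 had a member in a common-gain window. Of 4 measured Hox genes, which pattern the body axis, it was Hoxd12, whose window gained 11.1 and 22.0 points. Its promoter CpGs overlapped between genotypes in MLL-AF9, at 9.52%, 25.6% and 35.2% in WT and 16.3%, 27.6% and 40.3% in knockin. Of 30 measured developmental transcription factors bound by Polycomb in embryonic stem cells it was Phox2a, a homeobox gene of autonomic neurons, whose window gained 13.5 and 52.7 points. The promoter CpGs of Phox2a also overlapped in MLL-AF9, at 46.9%, 17.3% and 19.4% in WT and 48.2%, 52.3% and 33.1% in knockin. In the list of developmental transcription factors 22 of 30 genes were higher and 0 lower in both knockins, with median differences of 2.37 and 7.82 points. Over all 5400 genes 1585 were higher and 989 lower in both, with medians of 0.27 and -0.10. The list also started higher, at median WT levels of 4.01% (MLL-AF9) and 6.31% (cMyc-Bcl2), beside 1.03% and 1.02% over all genes. Genes of matched WT level were not compared. The Bsx block printed above read 10.8% in cMyc-Bcl2 WT and 37.9% in knockin, and gained 17.3 points in MLL-AF9.

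No member of the other 8 lists lay in a common-gain window: 4 stem and progenitor regulators, 3 myeloid, 6 lymphoid, 6 germline and 8 imprinted genes, 17 tumour suppressors and Wnt antagonists, 6 enzymes of DNA methylation and 15 housekeeping genes were measured. The background is 1.04% of genes. In WT of MLL-AF9 and cMyc-Bcl2 the median level was 0.922% and 1.09% in the stem and progenitor genes, 0.745% and 0.362% in the myeloid and 1.57% and 1.71% in the lymphoid genes, beside 1.03% and 1.02% over all measured genes. Their median differences were 0.13 and -0.11, -0.06 and -0.36, and 0.43 and -0.10 points. Hoxa6, measured by 3 CpGs, read 70.1%, 44.4% and 19.6% in MLL-AF9 WT and 98.6%, 60.7% and 55.0% in knockin, so the groups overlapped. Smc1b, a cohesin subunit of meiosis, differed by 13.3 and 57.7 points, and Sfrp5, a secreted Wnt antagonist, by 9.60 and 31.8. Hoxa6, Smc1b and Sfrp5 are named because each had the largest smaller difference of its list. The median differences were 4.97 and 17.4 points in the Hox genes and 0.884 and 0.618 in the germline genes. In the tumour suppressors and Wnt antagonists they were 0.445 and 0.262.

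The 5 promoters in windows of opposite sign were Sema3c, Ctnna2, Fam83b, Nrxn3 and Kcnma1, and the windows of all 5 were lower in the MLL-AF9 and higher in the cMyc-Bcl2 knockin. Sema3c is a secreted guidance cue, Ctnna2 a neuronal catenin, Nrxn3 a synaptic adhesion molecule and Kcnma1 a potassium channel. The 4 CpGs of the Fam83b promoter printed above read 40.0%, 41.9% and 41.7% in MLL-AF9 WT and 21.2%, 15.4% and 13.9% in knockin, against 39.7% and 22.2% in cMyc-Bcl2 WT and 67.1% and 67.4% in knockin. The 9 CpGs of Ctnna2 went from 25.5% to 15.2% in the first model and from 10.1% to 42.5% in the second. The lowest WT mean among the 5 promoters was 8.997%, that of Nrxn3 in cMyc-Bcl2.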

How the data were processed

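The files hold, per the file headers, a chromosome, a position and a pair of numbers per cytosine; the values show these to be methylated and unmethylated read counts as the authors deposited them. The submitters' processing notes name the build mm9 and the tools Bismark 0.7.4, Trim Galore 0.2.2, methylKit and CASAVA, without settings. Each chromosome lists the cytosines of 1 strand and then those of the other, so both strands of a CpG were joined at the forward cytosine. Autosomal CpGs with 10 or more reads in every library were summed in 1000-bp windows holding at least 3 of them, and a level is the percent of methylated reads. PCR reads are not independent molecules, and depth speaks for counting error alone.

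Groups came from the oncogene and knockin labels, and replicates were numbered in accession order. CpG levels of replicates correlated at 0.933 to 0.971, and each library was counted as its own sample. Tests were exact two-sided permutations over libraries with Benjamini-Hochberg adjustment; functions were tested on simulated data. Promoters (RefSeq, GRCm38.p6) were placed where at least 8 CpGs in a row had the spacing of CpGs listed on the same chromosome, at 1 place and in gene order. Of the CpGs listed inside these stretches 99.997% fell on a CpG of the sequence. No genome was used, and promoters on chromosome 18 were not analysed here. Named windows were the 10 largest common gains by the smaller difference, the common losses, 4 of each opposite sign, 3 runs and 2 on each side of the threshold; named promoters were the 10 largest and members of 10 gene lists. Members, lists and rules were chosen with earlier results of these data known. Alternatives covered coverage, window size, CpG number, threshold, overlap, weighting, chromosomes 15 and 16, extreme coverage, single strands and each library. Python 3.11.15, numpy 2.4.6, pandas 2.3.3 and scipy 1.17.1 were used.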

Additional observations from a re-analysis of the deposited data

Results flagged for a closer look

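In 8 named windows every knockin library of MLL-AF9 lay on one side of its WT libraries and every knockin library of cMyc-Bcl2 on the other side. Values are the MLL-AF9 difference minus the cMyc-Bcl2 difference in percentage points, and the difference between models was not tested. Among windows higher in the MLL-AF9 and lower in the cMyc-Bcl2 knockin it was 68.2 at chr10:61749294-61749390 and 75.7 at chr5:147520617-147520667. It was 59.8 at chr11:62894817-62894862 and 60.5 at chr15:76736659-76736675. Replicates were uneven at the first of these, where the cMyc-Bcl2 knockin libraries read 87.5% and 29.5% against 96.9% and 93.3% in WT.

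Among windows lower in the MLL-AF9 and higher in the cMyc-Bcl2 knockin it was -97.54 at chr16:77500218-77500296 and -57.49 at chr7:127647978-127648001. It was -60.65 at chr9:76415134-76415166, the Fam83b promoter, and -59.13 at chr7:112630687-112630777. The window on chromosome 16 read 59.6%, 99.3% and 95.8% in MLL-AF9 WT and 49.5%, 13.3% and 45.7% in knockin, and 45.0% and 34.2% in cMyc-Bcl2 WT and 87.7% and 89.1% in knockin. Of the 27020 windows tested, 87 and 23 had opposite signs by the rule, and these are the 4 each way with the largest value of the smaller difference, outside chromosome 18.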

How the results depend on the processing

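No paired analysis was possible because the labels give no replicate numbers. None of the 852 single-window values under the alternatives changed sign, and 14 moved by more than the replicate SD. The named windows were picked for no overlap of genotypes in either model, so leaving out a library could not change a sign. Dropping chromosomes 15 and 16 or asking for 5 CpGs leaves the value of a window still tested as it was. Most of these signs were thus fixed by the choice of windows. With 20 reads, 5 reads, 5 CpGs, 20 points, 5 points or overlap allowed, common gains numbered 140, 1126, 397, 198, 1130 and 1599, and common losses 0, 7, 0, 0, 4 and 19. Windows higher in the MLL-AF9 and lower in the cMyc-Bcl2 knockin then numbered 5, 182, 19, 15, 186 and 253. Those of reverse signs were 8 with 20 reads, 4 with 20 points, 36 with 5 points and 115 with overlap allowed. Promoters in common-gain windows with overlap allowed were 110. Common losses were 1 with 500-bp windows and 1 on single-strand cytosines as listed, an alternative added after seeing the data. The median WT level of common gains was 12.2% with 20 reads, 27.4% with 5 reads, 17.8% in 500-bp windows, 14.5% with 5 CpGs, 29.5% with 20 points, 15.9% with 5 points, 24.9% with overlap and 18.5% on single strands. With 5 reads the median of all windows was 30.4%, above that of common gains. The median of listed CpGs was 36 with 20 reads, 17 with 5 reads, 33 with 5 CpGs, 19.5 with 20 points and 35 on single strands, where each CpG counts per strand. The share with an adjacent common gain was 0% with 20 reads and 24.0% with overlap. Without 1 library, common gains ranged from 720 to 1095, common losses from 3 to 8, opposite windows from 89 to 193 and from 20 to 62, the median WT level from 18.1 to 23.0%, listed CpGs from 20 to 24 and the adjacent share from 9.70 to 21.9%. The cross-model differences kept their sign throughout; without 1 library those of gains were 9.65 to 11.9 points in cMyc-Bcl2 and 6.41 to 9.99 in MLL-AF9, and those of losses 7.83 to 15.1 and 6.24 to 8.38. The mean over all windows was 3.05 to 3.65 points. The cause of these shifts was not tested, apart from the fewer windows that stricter minimums leave.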
